A study of Mus musculus with 10 samples.

Results

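Transcripts of CTCF and of the proteins that build, load and release the cohesin ring were followed in mouse embryonic stem cells that lack a CTCF binding element. The set comprised 10 genes chosen by symbol among the 52636 gene identifiers of the count tables: Ctcf and its paralogue Ctcfl, the ring subunits Smc1a, Smc3 and Rad21, the accessory subunits Stag1 and Stag2, the loader Nipbl, and the release factors Wapl and Pds5a. All 10 had counts in every library and all 10 entered the test. The cells were of the E14 line, a line derived from blastocysts. They carried either the intact element (WT) or its deletion (CBE-KO), and both groups had been moved to medium without LIF and the 2 inhibitors that hold self-renewal, with retinoic acid added at a labelled dose of 2 µM for 24 h. There were 2 RNA-seq libraries per group, all of treated cells, so there was no untreated baseline. The labels do not say how many clones the CBE-KO libraries represent, nor whether the replicates came from separate cultures, so p-values measure only the spread between these libraries, which may be technical.

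CTCF is a zinc finger protein that binds insulator sites in an oriented way and halts cohesin there. Cohesin is a ring of SMC1A, SMC3 and RAD21 with a STAG1 or STAG2 subunit. NIPBL loads the ring on DNA and drives the extrusion of loops, and WAPL with PDS5 proteins releases it. In embryonic stem cells these proteins form the loops and domain borders that frame gene clusters such as HoxA, and the same ring holds sister chromatids together until mitosis. The comparison asks whether expression of this machinery differed when a binding element for it was missing.

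The libraries held 14108038 to 15632960 counts. Values below are CPM (counts relative to library size after trimmed-mean, TMM, scaling), in which 1 count corresponded to 0.0616 to 0.0727 CPM. The deleted element makes no transcript that these tables list, so its loss cannot be checked from them. The stem cell markers Pou5f1 and Sox2 were abundant in all 4 libraries and lower in CBE-KO: their means went from 1028 ± 79.7 to 816 ± 1.42 CPM and from 337 ± 14.1 to 265 ± 3.33 CPM (SD, n = 2 each). Of 7 fibroblast markers, Dcn and Lum had 0 counts in every library, Col1a2 and Col3a1 had 0 to 12, and Thy1 and Pdgfra, which did not pass, had 118 to 202. Col1a1 rose 1.83-fold in CBE-KO on 48 to 100 counts (edgeR adjusted p = 0.0029). The groups also differed in Y-linked transcripts: Uty, Ddx3y, Eif2s3y and Uba1y ranged from 0 to 7 counts per WT library and from 267 to 920 per CBE-KO library. Kdm5d, the fifth Y-linked gene looked at, was near 0 in both groups, with at most 1 count per WT library and 4 to 7 per CBE-KO library. The groups thus differed in more than the deleted element. Whatever lies behind the Y-linked difference went together with the deletion in all 4 libraries. Their parts in any difference between the groups below cannot be told apart.

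Expression of this machinery differed little between the groups. Of the 10 genes, 3 passed an adjusted p of 0.05 in edgeR's quasi-likelihood test across all genes: Stag1 and Rad21 rose in CBE-KO and Wapl fell. The background was 43.1% of the 16005 tested genes, with 21.6% higher and 21.5% lower in CBE-KO. Of the tested genes with a mean of at least 50 CPM, which takes in all of the set but Ctcfl, 60.2% passed. Of these 4364 genes, 731 passed as higher in CBE-KO and 1895 as lower. The median absolute log2 fold change was 0.098 over the 10 genes, 0.187 over the tested genes of at least 50 CPM and 0.277 over all tested genes. The median signed value was 0.09 over the 10 genes, -0.098 over the tested genes of at least 50 CPM and 0.007 over all tested genes. The 2 groups did not overlap in CPM for 9 of the 10 genes, a pattern that 70.4% of all tested genes showed. Among the 4364 tested genes of at least 50 CPM, 3492 showed it.

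**Figure D1:**
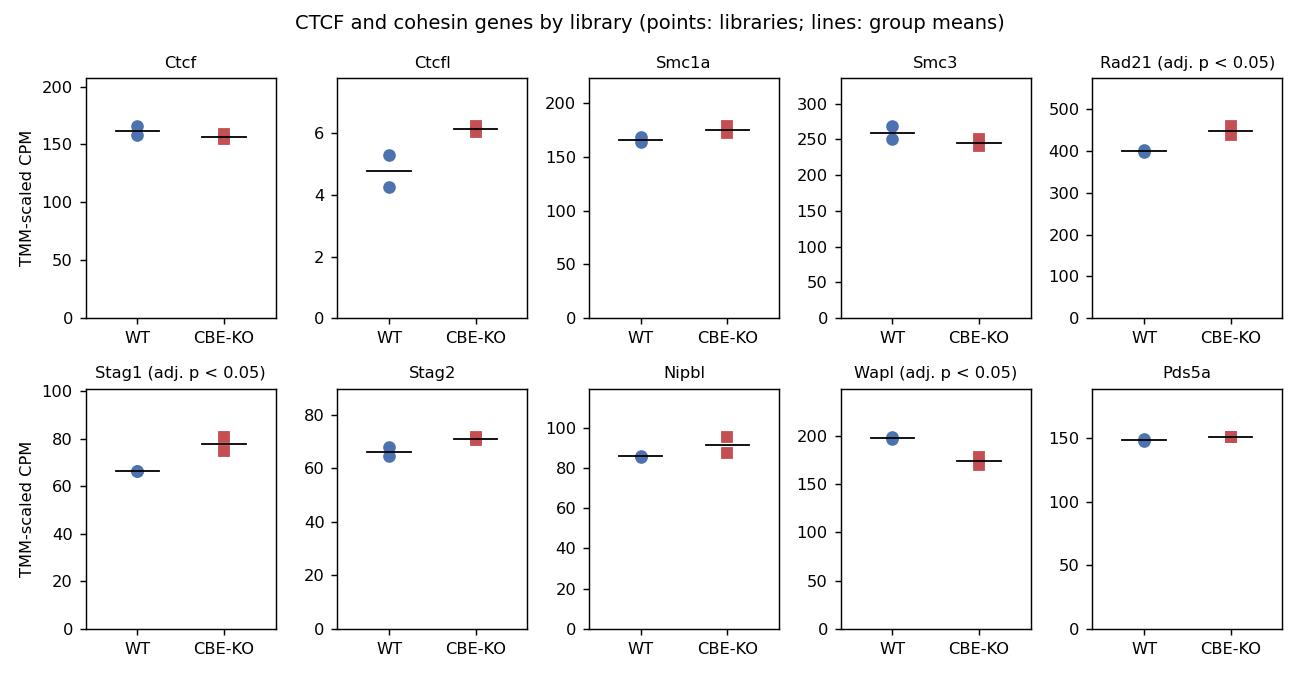
TMM-scaled CPM of the 10 genes in each WT library (circles) and CBE-KO library (squares), with group means as lines and axes that start at 0. The groups overlap for Ctcf alone, and the differences of Stag1, Rad21 and Wapl, the 3 that passed, are small against their levels.

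Promoter sequences are shown for the genes past the threshold that a RefSeq promoter table holds, Stag1, which rose, and Wapl, which fell, and for Ctcf and Smc3, which did not pass but share a motif with Stag1. The table (build GRCm38.p6) matched 6 of the 10 genes. Each run covers 250 bases before the start site given there and 30 bases after it, 5′ to 3′. Capitals mark the letters AAATGGC on either strand, the core of the motif of YY1, a zinc finger protein that binds promoters and enhancers and can hold them together. It was picked after the sequences had been seen, and motifs of NRF1 and ETS factors were also tried and are not shown. The Stag1 run lies at chr9:100643198-100643477, the Wapl run at chr14:34673678-34673957, the Ctcf run at chr8:105636288-105636567 and the Smc3 run at chr19:53600146-53600425, all on the plus strand. The start sites used for Stag1, Wapl and Ctcf lie inside the RefSeq gene spans given below, which begin further upstream (at 100597709, 34672379 and 105636474).
Stag1: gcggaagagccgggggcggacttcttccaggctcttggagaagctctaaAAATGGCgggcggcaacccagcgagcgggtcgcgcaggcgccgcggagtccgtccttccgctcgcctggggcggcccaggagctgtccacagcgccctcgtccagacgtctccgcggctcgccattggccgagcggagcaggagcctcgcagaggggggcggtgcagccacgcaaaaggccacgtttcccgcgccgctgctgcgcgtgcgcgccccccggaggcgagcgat
Wapl: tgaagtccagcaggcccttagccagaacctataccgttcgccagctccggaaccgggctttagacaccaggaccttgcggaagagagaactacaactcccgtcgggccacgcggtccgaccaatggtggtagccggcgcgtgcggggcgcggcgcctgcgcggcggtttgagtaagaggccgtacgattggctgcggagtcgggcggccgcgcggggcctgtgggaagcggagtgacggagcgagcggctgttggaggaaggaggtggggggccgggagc
Ctcf: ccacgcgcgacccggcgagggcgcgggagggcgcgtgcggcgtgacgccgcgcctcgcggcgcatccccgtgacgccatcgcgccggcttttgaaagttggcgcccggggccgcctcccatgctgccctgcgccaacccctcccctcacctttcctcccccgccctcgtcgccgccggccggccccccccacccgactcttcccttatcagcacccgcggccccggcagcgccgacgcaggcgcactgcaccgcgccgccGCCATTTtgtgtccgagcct
Smc3: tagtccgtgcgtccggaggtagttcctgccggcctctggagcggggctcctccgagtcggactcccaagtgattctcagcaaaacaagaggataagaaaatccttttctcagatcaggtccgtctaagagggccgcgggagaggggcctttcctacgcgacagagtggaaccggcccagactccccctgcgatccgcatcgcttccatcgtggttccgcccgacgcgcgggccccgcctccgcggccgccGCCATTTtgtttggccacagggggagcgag
The YY1 core stood in 3 of the 6 promoters (Stag1, Ctcf and Smc3) and in 3.89% of all 32851 promoters of the table in the same window. Counted from the start sites used for these runs, the core began at base 11 in Ctcf and at base 1 in Smc3. In Stag1 it began 201 bases before the start site. No match was found in the Wapl window. The 6 promoters were rich in CpG, with 19 to 51 CG pairs each against a median of 6.0 over the table, which is thus no matched background. A match is a description of letters and says nothing of binding in these cells.

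No difference in the transcript of CTCF itself was detected. Ctcf (ENSMUSG00000005698, chr8:105636474-105682922, GRCm38.p6) had 166 and 158 CPM in WT and 154 and 159 in CBE-KO, from 2172 to 2505 counts per library. The values of the 2 groups overlapped. Expression in CBE-KO was 0.967 times that in WT, with a 95% interval of 0.899 to 1.04 (edgeR adjusted p = 0.472).

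Ctcfl (ENSMUSG00000070495, chr2:173093609-173119525) encodes BORIS, the paralogue of CTCF that is normally made in the testis and binds many of the same sites. It had 4.24 and 5.31 CPM in WT and 6.22 and 6.05 in CBE-KO, on 62 to 101 counts. Both CBE-KO libraries lay above both WT libraries, and the WT libraries also lay apart from each other. Its ratio of CBE-KO to WT was 1.29 with an interval of 0.957 to 1.73 (edgeR adjusted p = 0.163), the widest interval of the 10. The summed level of 8 male germ cell markers, all detected in every library, was 122 and 125 CPM in WT and 173 and 178 in CBE-KO. Most of that difference was Dazl, which rose from 15.7 ± 1.07 to 53.7 ± 1.10 CPM (edgeR adjusted p = 4.70e-11), and the sum of the other 7 was 107 and 109 CPM in WT and 119 and 125 in CBE-KO. Dazl, Mael and Stk31 passed, all higher, which is 37.5% of the 8 beside 43.1% of all tested genes. Of the 5 that did not pass, Sycp3 (log2 fold change -0.17) and Tex101 (-0.31) were below 0. Their part in the Ctcfl value was not tested.

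Of the 3 ring subunits, only Rad21 passed. RAD21 is the kleisin that closes the ring and is cut when sister chromatids part. Rad21 (ENSMUSG00000022314, chr15:51962604-51993538) had 402 and 398 CPM in WT and 458 and 437 in CBE-KO. Both CBE-KO libraries were higher, and the gap between groups exceeded that within either group. Rad21 rose 1.12-fold (95% interval 1.05 to 1.20, edgeR adjusted p = 0.00931), a log2 fold change of 0.16 ± 0.05 (SE). Without CBE-KO replicate 1 it no longer passed (0.13, edgeR adjusted p = 0.164).

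The 2 SMC arms of the ring stood on opposite sides of 0, and neither passed. Smc3 (ENSMUSG00000024974, chr19:53600396-53645831) had 268 and 251 CPM in WT and 250 and 240 in CBE-KO. WT replicate 2 lay next to CBE-KO replicate 1, so the groups barely separated. Its ratio was 0.945, with an interval of 0.878 to 1.02 (edgeR adjusted p = 0.205), and it passed as lower when WT replicate 2 was left out (log2 fold change -0.13, edgeR adjusted p = 0.0362).

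Smc1a (ENSMUSG00000041133, chrX:152016428-152061973) had 168 and 164 CPM in WT and 178 and 172 in CBE-KO. Both CBE-KO libraries were higher by a few percent. The ratio was 1.06 with an interval of 0.985 to 1.14 (edgeR adjusted p = 0.199).

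STAG1 and STAG2 are alternative subunits of the ring, and STAG1 is the one linked to long-lasting loops at CTCF sites. Stag1 (ENSMUSG00000037286, chr9:100597709-100958544) had 66.4 and 66.2 CPM in WT and 80.7 and 75.0 in CBE-KO. The WT libraries were nearly equal and both CBE-KO libraries were higher. Stag1 rose 1.17-fold (interval 1.07 to 1.28, edgeR adjusted p = 0.00532), a log2 fold change of 0.23 ± 0.06 (SE), the largest of the 3 that passed. It missed the threshold in DESeq2 (adjusted p = 0.0611) and without CBE-KO replicate 1 (log2 fold change 0.18, edgeR adjusted p = 0.115).

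Stag2 (ENSMUSG00000025862, chrX:42149297-42277186) had 67.8 and 64.5 CPM in WT and 70.6 and 71.7 in CBE-KO. The CBE-KO libraries were both higher, by less than for Stag1. The ratio was 1.07 with an interval of 0.983 to 1.17 (edgeR adjusted p = 0.184). That Stag1 passed and Stag2 did not is no test of a difference between them: the ratio of Stag1 to Stag2 counts was 0.979 and 1.03 in WT and 1.14 and 1.05 in CBE-KO, and its mean log2 difference of 0.13 was close to the spread within groups (SD 0.05 and 0.09).

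Stag2 and Smc1a lie on the X chromosome, and the groups differed in their Y-linked transcripts as given above. Xist, the RNA that coats the inactive X, was counted 117 and 132 times in WT against 73 and 116 times in CBE-KO. It did not pass (log2 fold change -0.51, edgeR adjusted p = 0.0736), and the value hung on single libraries: -0.97 without CBE-KO replicate 2 (adjusted p = 0.000506) and -0.14 without CBE-KO replicate 1 (adjusted p = 0.666). Of 555 tested X-linked genes 49.2% passed, and their median was 0.13 on the log2 scale, beside 0.08 for Smc1a and 0.10 for Stag2. Of the 4 X-linked genes of the wider lists, Med14 fell (log2 fold change -0.25, edgeR adjusted p = 0.00602; -0.14 and 0.101 with library totals), and Zbtb33 (0.31), Med12 (0.08) and Hdac8 (-0.05) did not pass. The part of the sex chromosomes in these values was not tested, and in these libraries it cannot be told apart from that of the deletion.

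Of the loader and the release factors, only Wapl passed. Nipbl (ENSMUSG00000022141, chr15:8289824-8465315), the cohesin loader, had 85.9 and 85.7 CPM in WT and 95.4 and 87.4 in CBE-KO. CBE-KO replicate 1 was clearly above WT and replicate 2 hardly so. The ratio was 1.07, with an interval of 0.978 to 1.16 (edgeR adjusted p = 0.224).

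Wapl (ENSMUSG00000041408, chr14:34672379-34747983), which opens the ring and so limits how long cohesin stays on chromatin, had 198 and 197 CPM in WT and 178 and 170 in CBE-KO. Both CBE-KO libraries lay below both WT libraries by more than the spread within a group. Wapl fell to 0.879 times its WT level (interval 0.819 to 0.944, edgeR adjusted p = 0.00493), a log2 fold change of -0.19 ± 0.05 (SE). Without CBE-KO replicate 2 it missed the threshold (-0.15, edgeR adjusted p = 0.0864).

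Pds5a (ENSMUSG00000029202, chr5:65605719-65698236) encodes a cofactor of WAPL that also takes part in cohesin acetylation. It had 148 and 149 CPM in WT and 151 and 151 in CBE-KO. These were the closest values of the set: the ratio was 1.01 with an interval of 0.945 to 1.09 (edgeR adjusted p = 0.763). Its paralogue Pds5b was likewise not past the threshold (70.0 ± 1.65 and 68.7 ± 2.69 CPM, edgeR adjusted p = 0.758).

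The size of these differences is close to what the choice of scaling moves. When libraries were scaled by their totals alone, the median over all genes shifted to 0.11 on the log2 scale, and 6 of the 10 genes passed, all higher: Smc1a, Rad21, Stag1, Stag2, Nipbl and Pds5a, at log2 fold changes of 0.13 to 0.34. Wapl then missed the threshold (-0.08, edgeR adjusted p = 0.195), and Ctcf and Smc3 changed sign to 0.06 and 0.02. With median-of-ratios or upper-quartile scaling the same 3 genes as in the TMM fit passed, in the same directions.

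**Figure D2:**
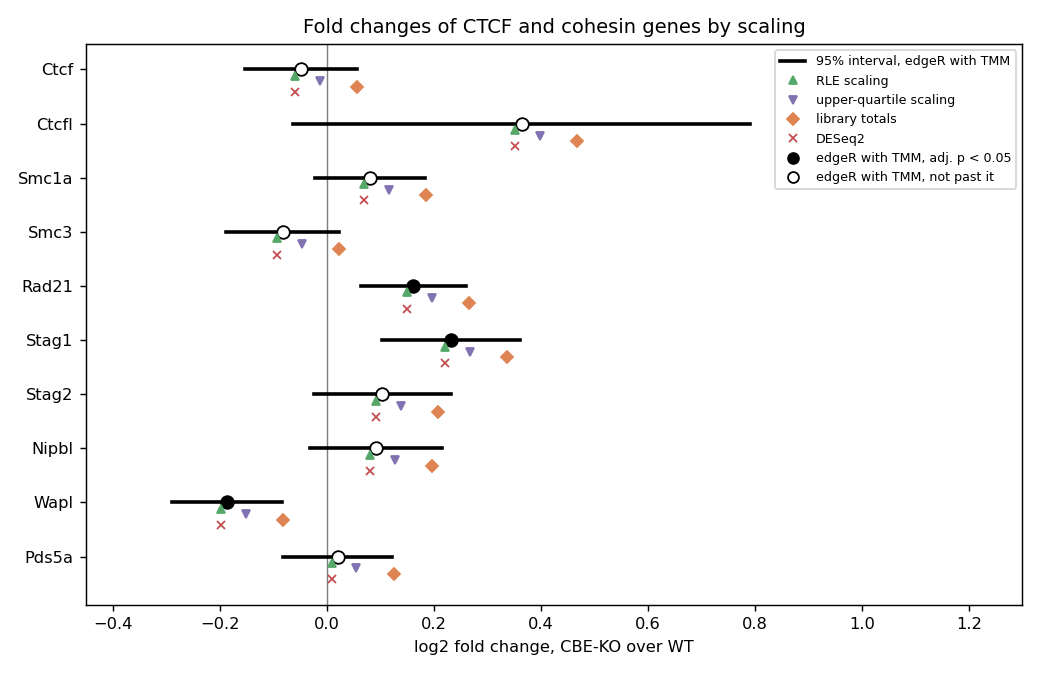
Log2 fold change of CBE-KO over WT for each gene in edgeR with TMM scaling (circles, filled where the adjusted p is under 0.05) with its 95% interval, and under 3 other scalings and DESeq2 (coloured symbols). Library totals alone shift every gene to the right, which takes Ctcf from -0.05 to 0.06 and Wapl from -0.19 to -0.08.

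Ratios of 2 genes within a library do not depend on scaling. They also do not compare levels, since transcript lengths were not used, and with 2 libraries against 2 the exact permutation test cannot go below p = 0.333, so they are descriptions. Rad21 counts were 2.03 and 2.02 times those of Wapl in WT and 2.58 and 2.57 times in CBE-KO, a 1.27-fold higher ratio. This pair, and Rad21 over Smc3, were chosen after their values had been seen. The latter ratio was 1.50 and 1.58 in WT and 1.83 and 1.82 in CBE-KO. Of the other pairs, Nipbl over Wapl went from 0.433 and 0.436 to 0.537 and 0.515, a 1.21-fold higher ratio of loader to release factor transcripts. Smc1a over Smc3 went from 0.627 and 0.652 to 0.712 and 0.718. Ctcf over Rad21 went from 0.412 and 0.397 to 0.337 and 0.363. Groups did not overlap in any of these 5 ratios, nor in Stag1 over Stag2. Pds5a over Pds5b overlapped, with 2.08 and 2.17 in WT and 2.13 and 2.26 in CBE-KO. How often the ratios of other gene pairs separate was not counted. Taken singly, 70.4% of all tested genes did not overlap in CPM, so separation is common in these libraries.

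**Figure D3:**
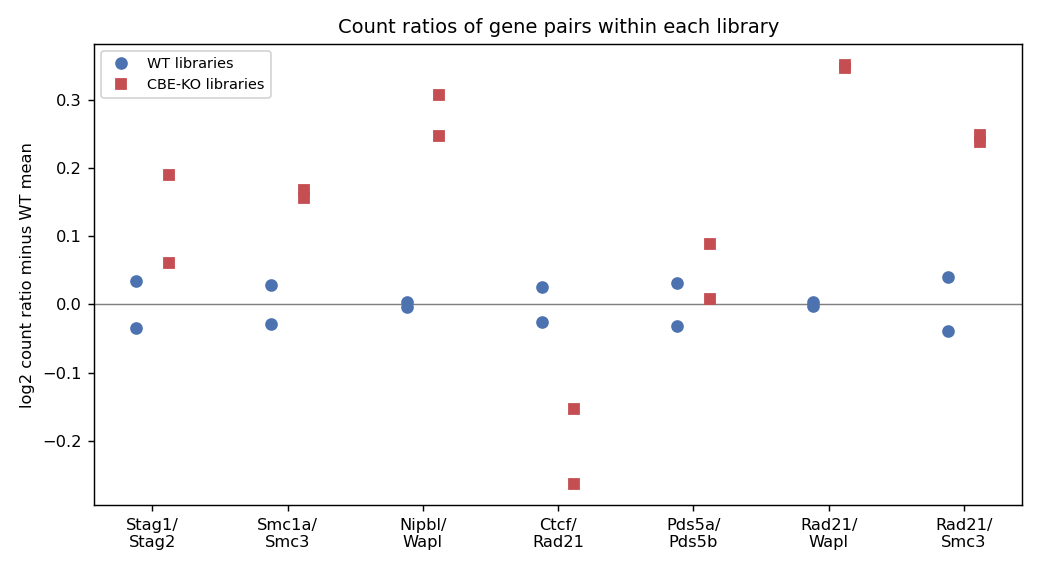
Log2 ratio of the counts of 2 genes within each library, minus the WT mean, for 7 gene pairs (circles WT, squares CBE-KO). Rad21 over Wapl lies 0.35 above WT in CBE-KO with little spread, and Ctcf over Rad21 lies 0.21 below.

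Genes most like Ctcf and Stag1 in pattern were sought among 11113 genes with a mean of at least 5 CPM. The 3 with the smallest Euclidean distance in centred log2 CPM over the 4 libraries were taken. This choice itself fixes fold changes close to those of Ctcf and Stag1, so the likeness is no separate result. With 4 values per gene and this many candidates, a close match says little. For Ctcf they were Calr (distance 0.008), Smdt1 and Gpatch11 (0.011 each), none of which passed. For Stag1 they were Rffl (0.007), Rev3l (0.012) and Inpp5f (0.014), with log2 fold changes of 0.24, 0.22 and 0.23, of which Rev3l and Inpp5f passed. Both missed the threshold in DESeq2 (adjusted p = 0.113 and 0.236) and without CBE-KO replicate 1 (edgeR adjusted p = 0.173 and 0.204), and Inpp5f also without either WT library (0.106 and 0.124) and without a filter on low counts (0.0729).

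Some other genes of the pathway had larger fold changes than any of the 10. Of 13 further cohesin regulators, 6 passed, 3 higher and 3 lower. That share of 46.2% was close to the 43.1% of all tested genes. The list's median was -0.01 on the log2 scale. Pttg1, which encodes securin, the inhibitor of the protease that cuts RAD21, rose from 27.3 ± 2.58 to 58.0 ± 1.67 CPM (2.12-fold, edgeR adjusted p = 1.06e-08). Sgo2a, a shugoshin that guards centromeric cohesin, rose from 28.0 ± 1.54 to 47.2 ± 0.516 CPM (1.69-fold, edgeR adjusted p = 6.36e-07). Esco2, an acetyltransferase that locks cohesin on replicated DNA, fell from 105 ± 0.765 to 78.3 ± 2.27 CPM (0.742 times, edgeR adjusted p = 6.90e-06). Chtf18, of the clamp loader that works with cohesin at replication forks, fell to 0.744 times its WT level (edgeR adjusted p = 2.56e-06). The other 2 that passed were Espl1, the protease separase, which was higher, and Cdca5, which encodes sororin and was lower.

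Cohesin subunits known from meiosis were also measurable. Of 5 genes on this list, among them Meikin, which is not a cohesin subunit, 3 had enough counts. All 3 passed, 2 higher and 1 lower, beside 43.1% of all tested genes. With so few genes the share says little. Rec8, the meiotic kleisin, rose from 24.8 ± 0.0628 to 56.2 ± 1.76 CPM (2.26-fold, edgeR adjusted p = 2.07e-09). Stag3 rose 1.24-fold (edgeR adjusted p = 0.000229), and Smc1b fell from 11.8 ± 1.75 to 6.67 ± 0.193 CPM (0.567 times, edgeR adjusted p = 0.000591). Rad21l had 2 to 4 counts per library and Meikin 0, which is below what could be compared. The germ cell markers, whose sum differed mostly by Dazl, are given beside Ctcfl, and their part here was not tested.

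Related complexes and partners were mixed. Of 15 genes of condensin and SMC5/6, counted with Smchd1, which belongs to neither complex, 7 passed, 5 higher and 2 lower. This was 46.7% of the list, beside 43.1% of all tested genes and 60.2% of those of at least 50 CPM. Smchd1, an SMC protein of the inactive X, rose 1.24-fold and Smc4, a condensin arm, 1.20-fold, while Nsmce2 and Nsmce1 of the SMC5/6 complex fell to 0.776 and 0.854 times (edgeR adjusted p = 0.00055, 0.000864, 0.00051 and 0.0168). Nsmce1 missed the threshold in DESeq2 (adjusted p = 0.0765), with library totals (edgeR adjusted p = 0.174), without WT replicate 1 (log2 fold change -0.13 against -0.23, edgeR adjusted p = 0.202) and without CBE-KO replicate 2 (edgeR adjusted p = 0.0882). DESeq2 called 3 of this list, and edgeR without CBE-KO replicate 2 called 4. Of 13 CTCF partners and other looping factors, 7 passed (53.8%, between the same 2 shares), 1 higher and 6 lower. The list's median was -0.12 on the log2 scale. All tested genes of at least 50 CPM, a level that most of this list reached, had a median of -0.098. Top2b, a topoisomerase found at loop anchors, rose 1.33-fold (edgeR adjusted p = 3.66e-05), and Adnp and Npm1 fell to 0.619 and 0.718 times (edgeR adjusted p = 0.00451 and 1.46e-07). Adnp rests on 89 to 160 counts per library and missed the threshold without CBE-KO replicate 1 (edgeR adjusted p = 0.0814). Npm1 has near-identical copies in the genome, so its counts are uncertain. Yy1, whose motif is marked above, was among those that fell (log2 fold change -0.21, edgeR adjusted p = 0.00265), and it is named after its value was seen. Of 8 genes for Mediator, the coactivator that meets cohesin at enhancers, 3 passed (37.5%, below both shares). Ccnc was higher (1.18-fold, edgeR adjusted p = 0.0245), and Med23 and Med14 were lower (0.801 and 0.843 times). Ccnc missed the threshold in DESeq2 (adjusted p = 0.196). It also missed it in edgeR with any 1 library left out, at log2 fold changes of 0.21 to 0.25. With library totals 5 of these 8 passed, 4 higher and 1 lower, and with upper-quartile scaling 5 passed, 3 higher and 2 lower.

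**Figure D4:**
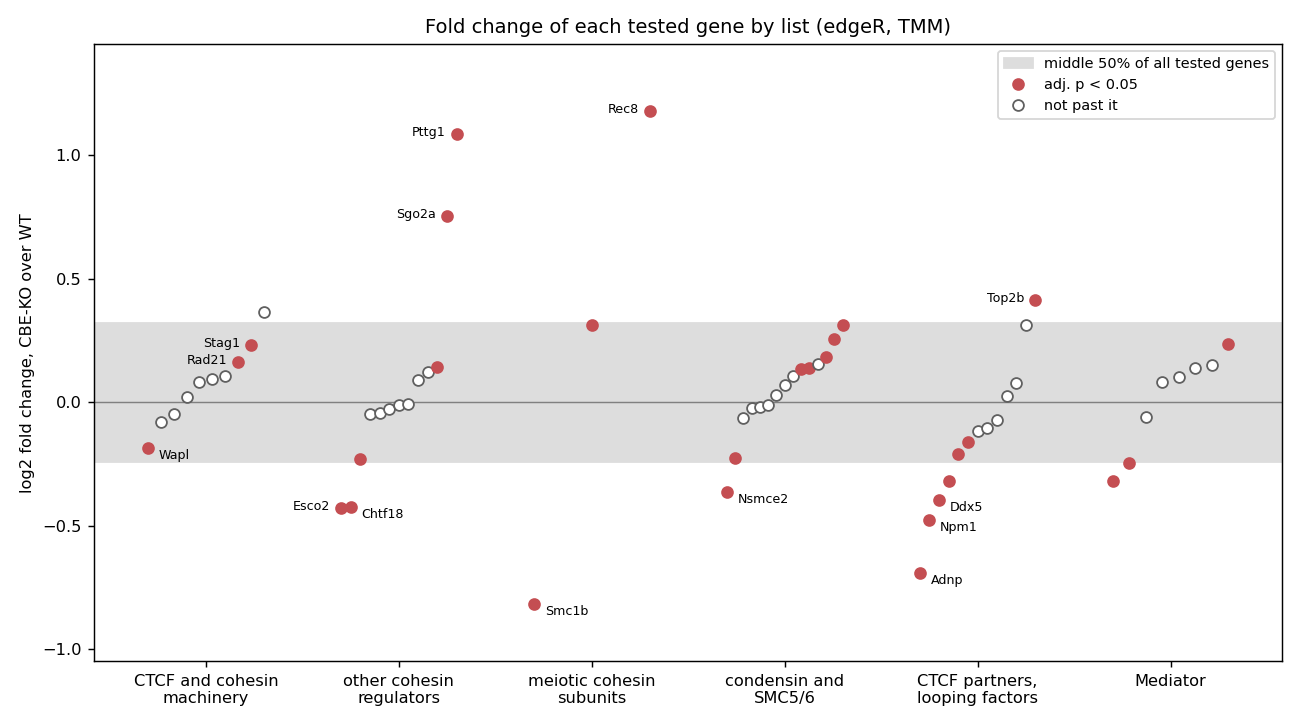
Log2 fold change of CBE-KO over WT for each tested gene, by list (filled where the edgeR adjusted p is under 0.05), with the middle 50% of all tested genes shaded. In the first column 9 of the 10 genes of the CTCF and cohesin machinery lie inside the shaded range and Ctcfl (0.36, not passed) above it, while Pttg1 and Rec8 lie above 1.

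Over the 5 lists together, 26 of 52 tested genes passed, 12 higher and 14 lower, a share of 50.0% beside the 43.1% of all tested genes. Of the 36 with a mean of at least 50 CPM, 18 passed (50.0%), beside the 60.2% of all tested genes at that level. With library totals alone, 32 passed, of which 23 were higher. Many of these genes are made in S phase or mitosis. Of 10 proliferation markers, 8 passed, 3 higher (Mki67, Top2a and Aurkb) and 5 lower (Cdk1, Ccna2, Pcna, Mcm2 and Mcm5). All 10 had a mean of at least 50 CPM. Of the 4364 tested genes at that level, 60.2% passed, 731 as higher and 1895 as lower. The summed level of the 10 proliferation markers was 3816 and 3782 CPM in WT and 3587 and 3554 CPM in CBE-KO. The summed level of 6 stem cell markers was 2287 and 2170 CPM in WT and 1642 and 1651 CPM in CBE-KO, with 5 of 6 lower and Epcam higher. The sum of the 7 fibroblast markers, of which Col1a1 alone passed, was 22.9 to 26.8 CPM in WT and 27.2 to 29.7 CPM in CBE-KO. Whether cell cycle or differentiation state had a part in the differences of the CTCF and cohesin genes was not tested. In such bulk samples, fewer cells of a kind and less RNA per cell cannot be told apart.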

How the data were processed

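RNA was extracted with Trizol from E14 cells, and 4 RNA-seq libraries were analysed. The series' 6 Capture-C samples are not used here. The deposited values are raw read counts per Ensembl gene identifier, 1 table per library, without normalization, as the values show. The submitters' processing notes name HISAT2 2.1.0 and HTSeq 0.9.1 among their tools and the build mm10. Use of strand, treatment of reads that match several genes and the annotation release are not given in the sources used here, so overlapping, antisense and near-identical genes are uncertain. Symbols came from a gene name table that matched 52403 of 52636 identifiers. Gene positions came from RefSeq on GRCm38.p6, the assembly behind mm10.

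The sample titles gave each library's group and replicate number. Genes were kept with edgeR's filterByExpr (16005 genes), scaled by TMM and tested with edgeR 4.0.16 in R 4.3.3 (glmQLFit and glmQLFTest, two-sided, Benjamini-Hochberg over all tested genes, threshold 0.05). Intervals are 95% for each gene alone, from the log2 fold change, its standard error and the moderated degrees of freedom. Alternatives were DESeq2 1.42.0, other scalings and filters, robust moderation, a threshold of 0.01, the replicate number as a block and leaving out each library. In the last, the lone library of a group is assumed to vary like the other group. Scripts were tested on simulated counts. The 10 genes and the lists were chosen with earlier results of these data known. All 10 were named, and from each other list up to 2 rises and 2 falls with the largest change past the threshold, X-linked members, Pds5b, sex chromosome genes, Pou5f1 and Sox2. From the wider lists and their counts 1 gene was left out and is not reported here. Replicates differed by more than sampling noise (chi-square per degree of freedom 3.40 in WT and 2.70 in CBE-KO).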

Additional observations from a re-analysis of the deposited data

How the results depend on the processing

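Of the 10 CTCF and cohesin genes, 3 passed under most alternatives: other filters, median-of-ratios and upper-quartile scaling, robust moderation, a threshold of 0.01 and the replicate block. DESeq2 called 2 (Rad21 and Wapl). Library totals alone called 6, all higher. Leaving out a library gave 1 to 4, with 1 (Wapl) without CBE-KO replicate 1. Over all genes, 6895 passed, and DESeq2 called 4577. The cause of these shifts was not tested, apart from library totals, which move the median of all genes. Fits with the replicate number as a block called 3 of the 10 genes and 7027 of all genes, and changed no call among the 10. Among the other named genes, it let Xist pass (-0.53, adjusted p = 0.0165 in edgeR, against 0.0736 without it), as did the block with upper-quartile scaling (0.0242), no filter (0.0222) and leaving out WT replicate 1 (0.00787) or CBE-KO replicate 2. Zbtb33 passed with the block and upper-quartile scaling (0.0458), with library totals (0.0256) and without WT replicate 2 (0.0333), and Rffl with library totals (0.0276). Libraries with the same number deviated from their groups with a correlation of 0.035, and the labels do not say that a number marks a shared batch. Signs turned in 13 cases, none of a gene past the threshold. With library totals these were Ctcf (0.056), Smc3 (0.023), Hdac8 (0.059), Pds5b (0.078), Calr (0.059), Smdt1 (0.057) and Gpatch11 (0.054). Pds5b also turned with upper-quartile scaling (0.0079) and with the block added to it (0.0074). With 1 library left out, Pds5b ranged from -0.069 to 0.011, Hdac8 from -0.23 to 0.15 and Med12 from -0.029 to 0.19. Depth limits Ctcfl most, at 62 to 101 counts.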
